A study of Rattus norvegicus with 6 samples.

Results

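Interferon-stimulated genes were followed in the pancreas of rats with L-arginine-induced acute pancreatitis (AP). The set is a list of 41 gene symbols of transcription factors, nucleic acid sensors and antiviral effectors, and each symbol was looked up in the table of read counts, with rows that share a symbol summed. A row was found for 40 of the 41 among 19780 gene symbols, and 38 of them were among the 13240 genes with enough counts to be tested. Both groups were male, wild-type Sprague-Dawley rats, an outbred strain, 8 weeks old, and whole pancreas tissue was profiled by bulk RNA sequencing of poly(A) transcripts. The AP group (n = 3) had been given L-arginine by injection into the peritoneal cavity, which injures the enzyme-secreting acinar cells, and the control group (n = 3) an equal volume of saline. The sample labels put the dose at 5 mg/kg and the treatment time at 36 hours, but the series' design text speaks of 2 doses of 2.5 g/kg and collection after 48 hours. The libraries held 14453584 to 18961353 counts each. Labels do not say whether a library is 1 animal or a pool, so the p-values below measure only the spread between these libraries, which may in part be technical.

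Interferons are secreted proteins that warn neighbouring cells of infection or tissue damage. Type I interferons (alpha and beta) act through the receptor Ifnar1/Ifnar2 and the kinases Jak1 and Tyk2, which activate a transcription factor complex that includes Stat2 and Irf9. That complex binds a DNA element called the interferon-stimulated response element (ISRE). Type II interferon (gamma) acts through Ifngr1/Ifngr2 and leads to binding at another element, the gamma-activated site (GAS). The genes switched on in this way encode proteins that sense foreign RNA and DNA, block virus entry and replication, or adjust the signal itself. In the pancreas, these genes can be expressed by acinar, ductal and endocrine cells as well as by immune cells. Roles given below are known mainly from human and mouse cells.

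In AP pancreas, 37 of the 38 tested interferon-stimulated genes rose and none fell. Ifit1 was the only tested member that was not called. A call means an adjusted p of at most 0.05 in edgeR's quasi-likelihood test, with Benjamini-Hochberg adjustment over all tested genes. By the same rule 34.1% of all tested genes were called higher and 64.6% were called in either direction, so AP changed most of the measured transcriptome. Over the 38 tested members the median log2 fold change was 3.25, a 9.52-fold rise, against 0.07 for all tested genes. Members ranged from 0.70 for Herc6 to 5.64 for Oas2. At least 4-fold higher were 27 members, against 13.9% of all tested genes, and at least 16-fold higher were 11, against 4.37%. In 36 members every AP library was above every control library, a pattern that 37.8% of all tested genes shared. Values below are normalised CPM (read counts relative to the size of the library), which are scaled so that the middle of the tested genes is level between libraries. Scaling by library totals instead raised the median of all tested genes by 2.18 on the log2 scale, and each of the 38 members was then called higher, with log2 fold changes of 2.87 to 7.81.

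**Figure D1:**
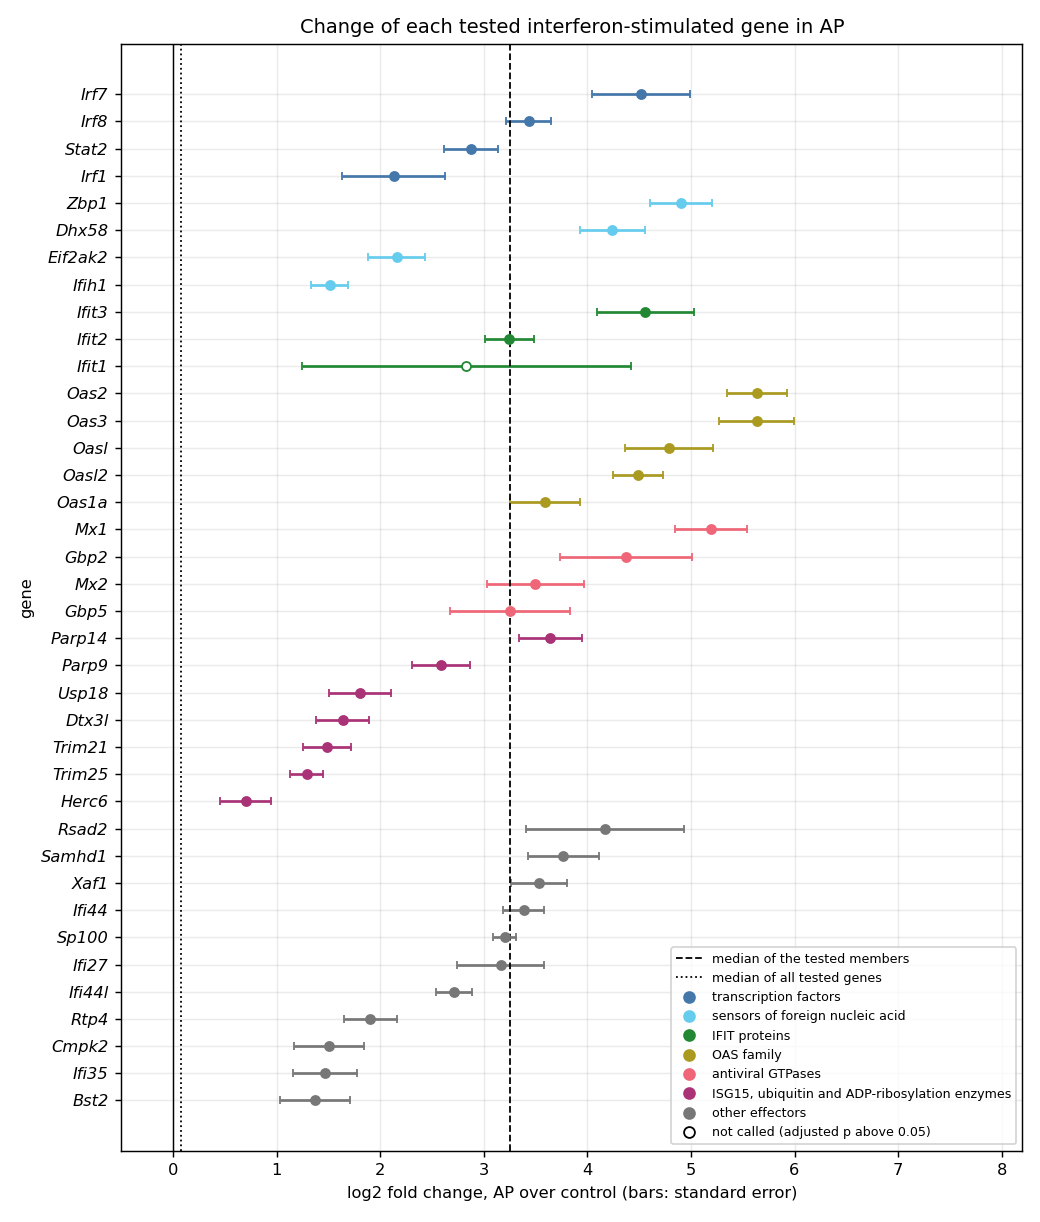
Log2 fold change of AP over control for the 38 tested interferon-stimulated genes (x axis; bars are standard errors, n = 3 per group), ordered by role and coloured by role group. Each estimate lies to the right of 0, the members' median (dashed) is 3.25 and that of all tested genes (dotted) 0.07; the open point is Ifit1, the member that was not called.

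As a share of all counts assigned to named genes, which rests on no scaling factor, the 40 members with a row held 0.0217%, 0.0302% and 0.0158% of the 3 control libraries, in the order of their replicate numbers, as in all lists of values below. Exact 95% binomial intervals, which cover counting error only, were 0.0210% to 0.0224%, 0.0294% to 0.0311% and 0.0152% to 0.0165%. In AP replicates 1 to 3 the shares were 0.601% (0.598% to 0.605%), 0.793% (0.789% to 0.797%) and 0.780% (0.776% to 0.784%). The means were 0.0226% ± 0.00724 and 0.725% ± 0.107 (SD, n = 3), a ratio of 32.1. The 9 digestive enzyme and identity genes of acinar cells that were measured held 39.3% to 40.7% of control counts, and 0.665%, 0.690% and 5.00% of the counts of AP replicates 1 to 3. With these acinar genes left out of the total, the members' shares averaged 0.0377% and 0.742%, a ratio of 19.7. The shares of most tested genes rose as well. Scaled by library totals, all tested genes had a median log2 fold change of 2.25, against 5.40 for the members.

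The DNA upstream of these genes was compared with that of other genes, because the members moved together and the ISRE is the element through which interferon is known to reach many of them. RefSeq promoter windows of the rat assembly GRCr8, each of 300 bases (250 before and 50 after the annotated start), were held for 32 of the 41 members, as 33 windows. The ISRE core was searched on both strands as GAAA, then any 2 bases (NN), then GAAA. It was present in 19 of the 33 windows (57.6%), against 3.92% of all 33469 windows and 3.0% of the windows of tested genes. A longer form, the core followed by CT, was found in 9 of the 33 windows (27.3%) against 0.278% of all. The GAS element, TTCNNNGAA, was found in 9 of the 33 (27.3%) against 8.87% of all. The members were listed because they are known interferon targets, so a high share of the motif is a property of the list and not a result about pancreatitis. A match is a run of letters, and whether a factor binds there was not measured.

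The windows of the 4 genes with an ISRE core and the lowest p-values are shown, 5′ to 3′ on the strand of the gene, to make the element visible. Capitals mark each match to the core, which reads TTTC, NN, TTTC where it lies on the opposite strand.
Oasl2, chr12:47383136-47383435, minus strand: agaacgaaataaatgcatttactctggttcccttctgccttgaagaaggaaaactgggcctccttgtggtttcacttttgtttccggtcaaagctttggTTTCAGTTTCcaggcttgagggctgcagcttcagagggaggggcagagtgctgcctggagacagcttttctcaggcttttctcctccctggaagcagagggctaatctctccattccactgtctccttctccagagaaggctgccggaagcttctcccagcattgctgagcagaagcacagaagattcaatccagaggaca
Ifi44, chr2:243303791-243304090, minus strand: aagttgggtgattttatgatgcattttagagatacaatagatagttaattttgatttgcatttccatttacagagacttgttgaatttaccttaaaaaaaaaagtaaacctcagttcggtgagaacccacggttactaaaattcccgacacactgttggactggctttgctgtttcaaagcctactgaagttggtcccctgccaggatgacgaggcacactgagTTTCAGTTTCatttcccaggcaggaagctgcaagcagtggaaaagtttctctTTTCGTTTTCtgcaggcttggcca
Oas3, chr12:41439482-41439781, plus strand: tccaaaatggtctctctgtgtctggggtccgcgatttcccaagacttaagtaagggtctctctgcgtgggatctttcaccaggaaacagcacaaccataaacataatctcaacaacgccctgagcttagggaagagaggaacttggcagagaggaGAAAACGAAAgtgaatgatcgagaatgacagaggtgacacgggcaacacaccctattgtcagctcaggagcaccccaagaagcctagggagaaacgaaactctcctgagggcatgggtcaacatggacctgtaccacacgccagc
Ifi44l, chr2:243328473-243328772, plus strand: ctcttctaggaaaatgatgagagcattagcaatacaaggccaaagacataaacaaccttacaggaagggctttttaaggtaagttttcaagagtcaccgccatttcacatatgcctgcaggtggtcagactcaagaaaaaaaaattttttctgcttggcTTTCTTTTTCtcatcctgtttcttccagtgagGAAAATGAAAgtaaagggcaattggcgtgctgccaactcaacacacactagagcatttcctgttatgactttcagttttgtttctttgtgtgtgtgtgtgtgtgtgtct
Counted from the annotated start as 0, the first base of the match lay at -151 in Oasl2, at -26 and 26 in Ifi44, at -95 in Oas3, and at -91 and -59 in Ifi44l. Over all member windows there were 26 matches, with a median position of -57.5, and 22 of them lay from -150 to -1. Of the transcription factor genes, Irf7 alone had an ISRE core in its window, while the windows of Irf1, Irf8 and Irf9 held a GAS. The tested members with an ISRE core had a median log2 fold change of 3.46 (18 genes, 1.37 to 5.63) and those with a window but no core 2.73 (12 genes, 0.70 to 5.19), so the ranges overlapped widely. Mx1, which rose 36.6-fold, and Oasl, which rose 27.7-fold, were among those without a match in the window.

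The transcription factors of the list carry or amplify the interferon signal, and each of the 4 that were tested rose. Irf7, the factor that drives the later wave of type I interferon genes, had 8.69, 19.2 and 4.82 normalised CPM in controls and 203, 352 and 206 in AP. The groups were far apart and AP replicate 2 was the highest. Its log2 fold change was 4.52 ± 0.473 (SE; adjusted p = 5.83e-05), and 5.22 without control replicate 2. Irf8, a factor of macrophages, dendritic cells and B cells, had 14.8, 10.9 and 7.39 in controls and 119, 120 and 122 in AP. Its AP values were nearly level, spanning 1.02-fold, and it was 3.44 ± 0.218 higher on the log2 scale (adjusted p = 4.06e-06). Stat2, the STAT protein specific to type I and type III interferon, had 18.4, 17.7 and 10.8 in controls and 90.3, 105 and 152 in AP. AP replicate 3 was the highest for Stat2, with no overlap between the groups and a log2 fold change of 2.88 ± 0.260 (adjusted p = 2.57e-05). Irf1, which responds most strongly to interferon gamma, went from 24.5, 18.6 and 9.0 to 44.6, 48.8 and 137. The third AP library stood well above the other two, so the log2 fold change of 2.13 ± 0.498 (adjusted p = 0.00536) became 1.41 without it. Irf9, the DNA-binding partner of Stat2, was at the edge of detection and was not tested. It had 0 counts in each control library and 7, 10 and 14 counts in the AP libraries. Against a floor of 3 counts over the control group it was at least 2.00-fold higher in AP, a bound that moved between 1.27 and 2.39 as libraries were left out in turn.

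Sensors of foreign nucleic acid detect viral or misplaced RNA and DNA, and each of the 4 on the list rose, with a median log2 fold change of 3.20. Zbp1, a sensor of left-handed DNA and RNA that can trigger necroptosis, had 1.12, 0.758 and 0.482 normalised CPM in controls and 19.4, 25.03 and 28.6 in AP. That was 4.90 ± 0.295 higher on the log2 scale (adjusted p = 3.14e-06), with no overlap. Dhx58, which encodes the helicase LGP2, rose from 2.48, 2.78 and 1.77 to 29.4, 48.0 and 57.7, a log2 fold change of 4.24 ± 0.312 (adjusted p = 8.86e-06). Ifih1, which encodes the double-stranded RNA sensor MDA5, rose less, from 16.9, 17.2 and 11.7 to 40.1, 41.2 and 49.9, or 1.51 ± 0.175 (adjusted p = 0.000105). The double-stranded RNA-dependent kinase gene Eif2ak2, whose protein PKR stops translation, lay between these with a log2 fold change of 2.16. In each of the 4 sensors AP replicate 1 was the lowest and AP replicate 3 the highest of the AP libraries.

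The IFIT proteins bind viral RNA and hold back its translation, and they split into a steady pair and an exception. Ifit2 had 8.57, 6.95 and 6.75 normalised CPM in controls and 48.7, 80.9 and 82.7 in AP, a log2 fold change of 3.25 ± 0.239 (adjusted p = 8.86e-06). Ifit3 had 3.35, 1.64 and 0.643 in controls and 27.1, 55.8 and 55.5 in AP, and was 4.56 ± 0.468 higher (adjusted p = 5.26e-05), or 5.27 higher without control replicate 1. For both genes the groups stood apart and AP replicate 1 was the lowest AP library. Ifit1 had 4.72, 6.32 and 1.29 in controls and 1.80, 87.4 and 0.794 in AP. AP replicate 2 alone was high, while the other two AP libraries lay among or below the controls. The log2 fold change was 2.83 ± 1.59 (adjusted p = 0.148), and without AP replicate 2 it turned to -1.68 (adjusted p = 0.0511). Without AP replicate 3 it was 3.40 and was called (adjusted p = 0.0444), as it was with library totals. The AP values of Ifit1 spanned 99.2-fold, a range that only 3 other tested genes exceeded. In the RefSeq annotation Ifit1 overlaps its paralogue Ifit1bl, a gene chosen here after its values were seen. Ifit1bl had 0.248, 2.02 and 0.643 normalised CPM in controls and 15.04, 10.5 and 18.6 in AP, so all 3 AP libraries were high. It rose by 3.89 on the log2 scale (adjusted p = 0.000235), and by 5.11 without control replicate 2. The sources used here do not say how the counting divided reads between these similar, overlapping genes, so their separate values are uncertain.

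The 2′-5′-oligoadenylate synthetase (OAS) family makes the messenger that switches on RNase L and degrades RNA, and it showed the highest median of the role groups, 4.79, with 5 of 5 tested members higher. Oas2 had 0.621, 1.64 and 0.804 normalised CPM in controls and 59.8, 52.7 and 42.7 in AP. It rose by 5.64 ± 0.293 on the log2 scale (adjusted p = 1.82e-06) and was the only tested member that was highest in AP replicate 1. Oas3 had 0.745, 0.758 and 0.321 in controls and 23.6, 42.4 and 28.3 in AP, with AP replicate 2 the highest and a log2 fold change of 5.63 ± 0.363 (adjusted p = 4.53e-06). Oasl2, an OAS-like gene whose ISRE lies farthest upstream among the windows printed above, had 5.46, 4.17 and 2.73 in controls and 75.9, 109 and 97.8 in AP. Its rise was 4.49 ± 0.244 (adjusted p = 2.19e-06), with the groups well apart. Oasl rose by 4.79, or 5.61 without control replicate 1, and Oas1a by 3.59. Oas1b was not analysed here. Oas1a lies next to Oas1h in RefSeq, and whether reads were split between Oas1 genes was not tested.

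Antiviral GTPases trap viral particles or attack pathogen vacuoles, and each of the 4 rose, with a median of 3.94. Mx1, the nuclear influenza restriction factor of rodents, had 9.81, 10.5 and 4.98 normalised CPM in controls and 223, 425 and 288 in AP. It was 5.19 ± 0.349 higher on the log2 scale (adjusted p = 5.57e-06), with every AP library far above the highest control. Mx2 had 12.3, 23.8 and 4.02 in controls and 140, 150 and 170 in AP, so its spread lay mostly among the controls. Its log2 fold change was 3.50 ± 0.472 (adjusted p = 0.000257), and 4.20 without control replicate 2. Gbp2, a guanylate-binding protein that responds strongly to interferon gamma, had 5.96, 12.8 and 3.70 in controls and 71.0, 106 and 295 in AP. AP replicate 3 was the highest and the AP libraries spanned 4.15-fold. Gbp2 rose by 4.37 ± 0.638 (adjusted p = 0.000404), by 3.54 without AP replicate 3 and by 5.01 without control replicate 2. Gbp5, which promotes inflammasome assembly, followed the same order, with 19.6, 24.0 and 68.1 in AP against 3.85, 5.81 and 1.77 in controls. Its log2 fold change was 3.25 ± 0.575 (adjusted p = 0.00120), and 2.48 without AP replicate 3.

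Genes of the ISG15, ubiquitin and ADP-ribosylation enzymes, which tag proteins or remove such tags, rose in 7 of 7 tested cases, with a median of 1.64. Parp14, an ADP-ribosyltransferase, had 18.7, 26.5 and 10.9 normalised CPM in controls and 191, 241 and 274 in AP, a rise of 3.64 ± 0.305 (adjusted p = 1.73e-05). Parp9, a member of the same enzyme family, had 16.3, 27.2 and 12.1 in controls and 93.4, 108 and 133 in AP, a rise of 2.58 ± 0.280 (adjusted p = 7.22e-05). Trim25, the ubiquitin ligase of the RNA sensor RIG-I, had 19.9, 22.4 and 28.8 in controls and 53.8, 64.1 and 55.3 in AP, a rise of 1.29 ± 0.158 (adjusted p = 0.000148). For these 3 genes the groups did not overlap. Dtx3l, the ubiquitin ligase partner of Parp9, rose by 1.64, Trim21, the cytosolic antibody receptor, by 1.49, and Usp18, which removes ISG15 from proteins and dampens receptor signalling, by 1.80. Parp9 and Dtx3l overlap in the annotation, and without a stated strand setting reads from the overlap cannot be assigned to either. Herc6, the ISG15 ligase of mice, had 37.4, 27.8 and 20.6 in controls and 36.7, 43.4 and 60.0 in AP, so the lowest AP library lay just under the highest control. Its log2 fold change of 0.70 ± 0.246 (adjusted p = 0.0331) lost its call on leaving out control replicate 2 (adjusted p = 0.0926), control replicate 3 (adjusted p = 0.102) or AP replicate 3 (adjusted p = 0.109). Nor was it called with the replicate number as a block (adjusted p = 0.0632). Isg15 itself, the ubiquitin-like modifier and one of the most widely used interferon markers, had 0 counts in all 6 libraries. In RefSeq it lies between Agrn and Perm1, of which Agrn had 208 to 3355 counts per library and Perm1 2 to 11. A count of 0 allows up to 3 counts, or 0.372, 0.379 and 0.482 normalised CPM in the controls and 0.0740, 0.0746 and 0.0883 in the AP libraries. Whether the row reflects the transcript or the annotation used for counting was not tested.

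The other effectors, 11 genes with varied antiviral or less defined functions, each rose, with a median of 3.16. Sp100, a component of PML nuclear bodies, had 15.3, 16.05 and 14.8 normalised CPM in controls and 141, 147 and 137 in AP. It was steady within each group, and its log2 fold change of 3.20 ± 0.112 had the smallest standard error of the tested members (adjusted p = 6.84e-07). Ifi44 had 6.95, 7.2 and 4.18 in controls and 63.5, 60.3 and 70.3 in AP, a rise of 3.39 ± 0.196 (adjusted p = 2.69e-06). Its chromosomal neighbour Ifi44l had 3.97, 3.29 and 4.02 in controls and 22.6, 27.8 and 23.3 in AP, a rise of 2.71 ± 0.175 (adjusted p = 4.59e-06). Both carry a pair of ISRE cores in the windows printed above. The other tested members with 2 cores spanned from 1.18-fold (Ifi27) to 1.62-fold (Bst2) in AP. In both Ifi44 and Ifi44l the AP libraries lay within 1.23-fold of each other. Rsad2, which encodes viperin, an enzyme that makes a chain-terminating nucleotide, was the opposite case. It had 3.97, 2.02 and 0.804 in controls and 13.5, 31.4 and 82.2 in AP, a 6.07-fold span with AP replicate 3 at the top. Its log2 fold change was 4.17 ± 0.760 (adjusted p = 0.00143), with 3.25 when AP replicate 3 was left out and 4.85 when control replicate 1 was. With limma-voom Rsad2 missed the threshold (3.99, adjusted p = 0.0722). Cmpk2, the nucleotide kinase gene beside Rsad2, showed the same order at a lower amplitude, from 10.8, 9.48 and 13.3 to 17.7, 30.5 and 46.9, a log2 fold change of 1.51. The remaining genes rose by 1.37 (Bst2, the tetherin that holds budding virus at the cell surface), 1.46 (Ifi35), 1.90 (Rtp4), 3.16 (Ifi27, or 3.92 without control replicate 2), 3.53 (Xaf1) and 3.77 (Samhd1, which depletes deoxynucleotides). Xaf1 overlaps Fbxo39 and Rtp4 overlaps Masp1 in the annotation, which leaves their counts with the same uncertainty of strand. In all, 8 members overlap another RefSeq gene, among them Eif2ak2, Oasl and Oasl2.

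**Figure D2:**
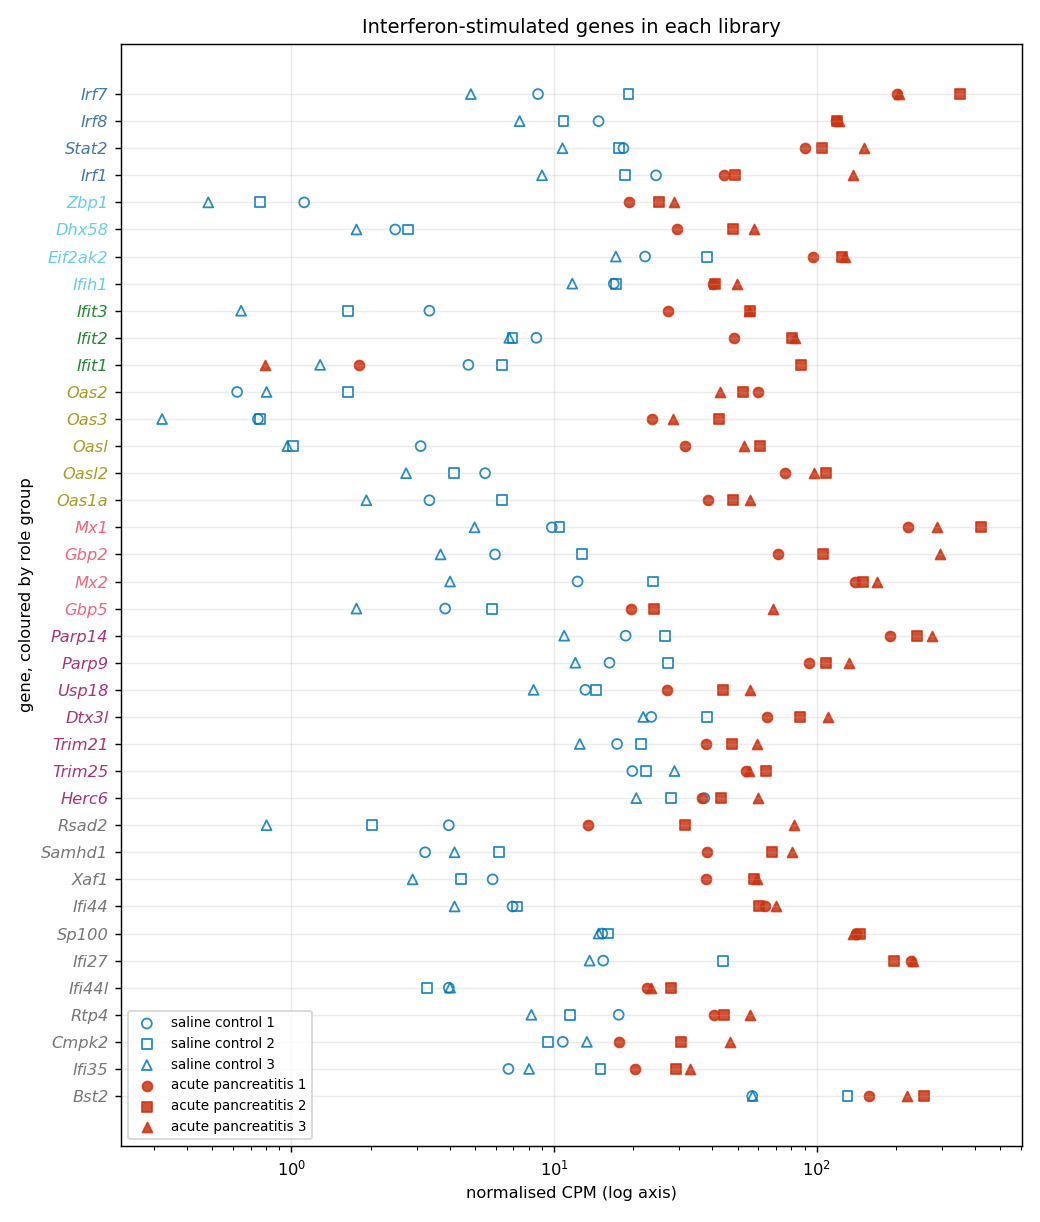
Normalised CPM (x axis, log scale) of the 38 tested interferon-stimulated genes in each of the 6 libraries, grouped by role; open blue symbols are the control libraries and filled red symbols the AP libraries, with 1 symbol shape per replicate number. Filled symbols lie to the right of all open symbols in 36 genes, the exceptions being Ifit1 (0.794 to 87.4 in AP) and Herc6 (36.7 in the lowest AP library).

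The 3 AP libraries did not carry the same level of these transcripts. Summed over the 40 members with a row, AP replicates 1 to 3 had 2688, 3690 and 3909 normalised CPM, against 464, 635 and 339 in the controls. AP replicate 1 was the lowest AP library in 33 of the 38 tested members (86.8%, against 34.4% of all tested genes). AP replicate 3 was the highest in 26, AP replicate 2 in 11 and AP replicate 1 in 1, whereas over all tested genes the shares were 36.3%, 30.1% and 33.6%. The median ratio of AP replicate 3 to AP replicate 1 was 1.45 over the members, with 35 of 38 higher in AP replicate 3, against 1.003 over all tested genes. With library totals AP replicate 3 was the highest in 20 members, AP replicate 2 in 14 and AP replicate 1 in 4. These are counts over genes measured in the same 3 libraries, so they describe the libraries and carry no test.

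**Figure D3:**
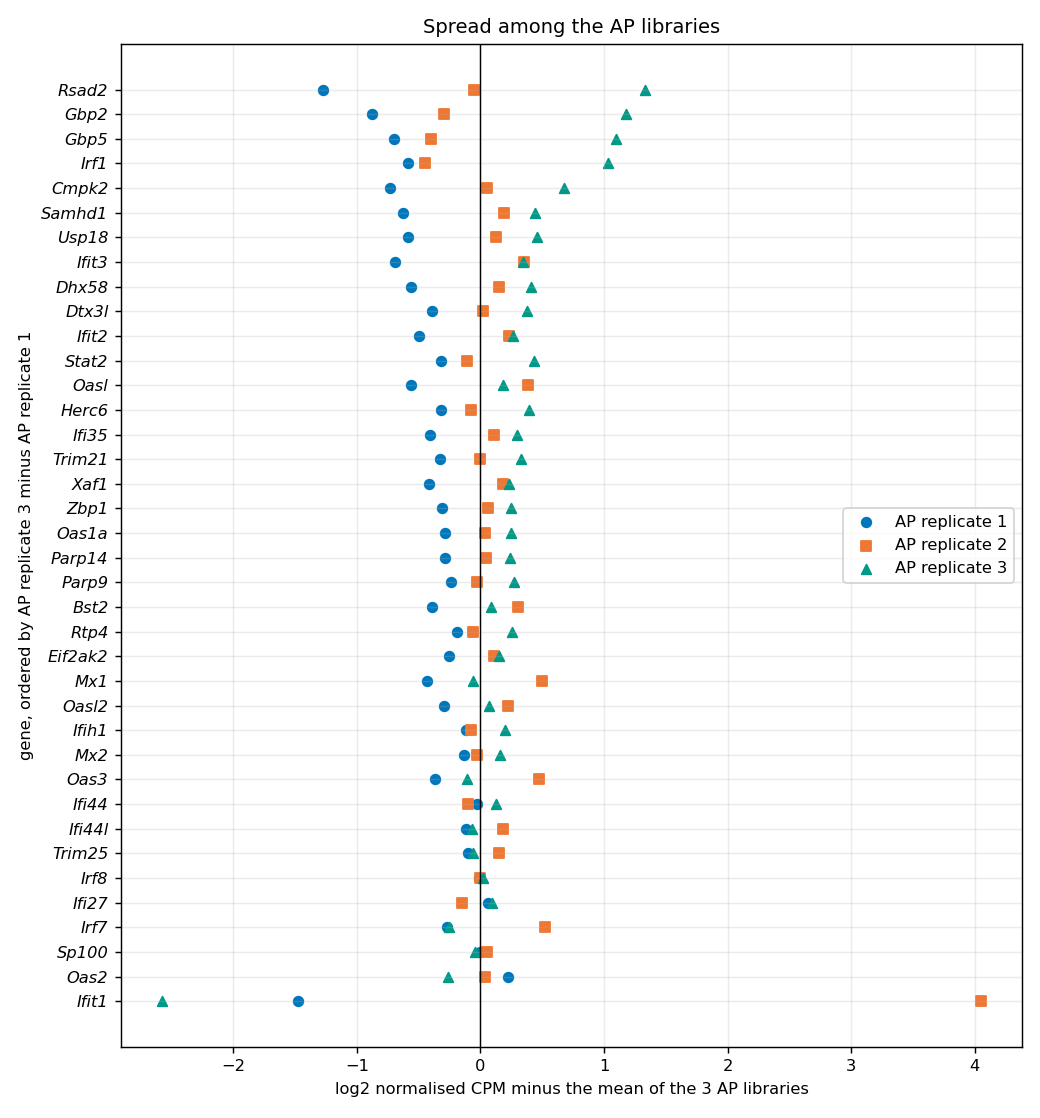
Deviation of each AP library from the mean of the 3 AP libraries, on the scale of log2 normalised CPM, for the 38 tested members, ordered by AP replicate 3 minus AP replicate 1. AP replicate 1 is the lowest in 33 members; the widest spreads are those of Ifit1 at the bottom (AP replicate 2 high) and of Rsad2, Gbp2, Gbp5 and Irf1 at the top (AP replicate 3 high).

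Within AP, the range over the 3 libraries had a median of 0.70 on the log2 scale over the members, or 1.62-fold, against 0.37, or 1.29-fold, over all tested genes. Of the 38 members, 16 spanned less than 1.5-fold and 29 less than 2-fold. A span of over 2-fold was found in 9 members (23.7%, against 11.2% of all tested genes) and one of over 4-fold in 3, Ifit1, Rsad2 and Gbp2 (7.89%, against 2.01%). The most even were Irf8 (1.02-fold), Sp100 (1.07-fold), Ifi44 (1.17-fold), Ifi27 (1.18-fold) and Trim25 (1.19-fold). Controls were more uneven than AP libraries for these genes, with a median range of 1.07 on the log2 scale, where all tested genes had 0.48. Many members had few counts in controls, such as 6, 6 and 2 for Oas3. The control range was 1.05 for Oas3. With more counts, it was 2.54 for Mx2 (99, 188 and 25) and 0.12 for Sp100 (123, 127 and 92). The part of counting error in the control ranges was not tested. Control replicate 3 was the lowest control in 31 of the 38 members (81.6%, against 34.8% of all tested genes), and control replicate 2 the highest in 23.

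Markers of other cell types were set beside these genes, since bulk tissue holds all of them. In bulk tissue, more cells of a type and more RNA per cell cannot be told apart. All 12 macrophage and monocyte markers rose (median log2 fold change 4.70), and their summed level was 183 to 224 normalised CPM in controls and 5912, 5905 and 5756 in the AP libraries. That sum was nearly level within AP and most of it was Lyz2, with 3585, 3672 and 4025 in AP. Lyz2 and the complement genes C1qa (60.7, 82.3 and 109) and C1qb (47.1, 68.2 and 89.5) were lowest in AP replicate 1 and highest in AP replicate 3, whereas Mrc1, Csf1r and Adgre1 were highest in AP replicate 1 and lowest in AP replicate 3. Of the 7 tested T and NK cell markers 6 rose, and their summed level was 2.57 to 11.1 in controls and 67.5, 217 and 157 in the AP libraries, lowest in AP replicate 1. Most of that sum was Cd8a, which some macrophages of the rat also express. With limma-voom Cd3e, Cd3d, Cd3g, Nkg7 and Klrb1a missed the threshold, and Nkg7 and Klrb1a also missed it on leaving out some of the single libraries. Prf1 was not called (adjusted p = 0.0624), but DESeq2 called it (adjusted p = 0.0115), as did library totals, the unfiltered fit and the fit that left out AP replicate 1. Dendritic cell markers rose in 6 of 7, with sums of 6.57 to 7.70 in controls and 31.9, 61.1 and 35.5 in AP, and 6 of the 7 were highest in AP replicate 2. Of these, Clec9a lost its call with limma-voom and without control replicate 1, control replicate 3 or AP replicate 2, and Zbtb46 without AP replicate 1. Siglech, a marker of the plasmacytoid dendritic cells that are known as strong producers of type I interferon, had 0.124, 0 and 0 in controls and 3.30, 6.47 and 1.26 in AP.

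Neutrophil markers rose in 5 of 5 tested, with sums of 5.81 to 6.33 in controls and 308, 248 and 314 in AP. Ncf1, which macrophages also express, made up most of the sum and was highest in AP replicate 3, while S100a8, S100a9, Csf3r and Cxcr2 were highest in AP replicate 1 and lowest in AP replicate 2. S100a9 missed the threshold with limma-voom (adjusted p = 0.0748). Mpo and Elane were near 0 throughout, and Fpr1, which was not tested, had 0 counts in each control and 32, 0 and 7 in AP. All 3 tested B cell markers rose and stayed low, with list sums of at most 5.82, although Cd79b lost its call without control replicate 1 or AP replicate 2. Ms4a1 and Cd79a had 0 counts in each control, so the size of their log2 fold changes is not a measured ratio. The fit gave 7.46 and 8.14, and 6.74 and 7.21 without AP replicate 2. Against a floor of 3 counts over the control group, they were at least 7.09-fold and 11.6-fold higher in AP. Fibroblast and stellate cell markers rose in 7 of 8, with a median of 2.20 and sums of 1022 to 1362 in controls and 6344, 8980 and 3831 in AP, lowest in AP replicate 3. Of the duct markers, Krt7 (3.88) and Sox9 (1.06) rose, and Cftr fell by 1.12 but was 1.06 higher with library totals. Sox9 missed the threshold with limma-voom and without control replicate 1, control replicate 3 or AP replicate 1. All 9 acinar markers fell, and endothelial markers summed to 126 to 157 in controls and 152 to 164 in AP. The part of these cell type differences in the rise of the interferon-stimulated genes was not tested.

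The rest of the pathway was read from lists of genes that are not members. The interferons themselves had few or no counts at this depth: of 10 ligand genes, 8 had a row and none had enough counts to be tested. Ifng, the gene of interferon gamma, had the highest count of them in a library, with 0 in each control and 3, 4 and 16 counts in the AP libraries. Against a floor of 3 counts over the control group, Ifng was at least 1.48-fold higher in AP. That bound moved between 0.641, without AP replicate 3, and 1.99 as libraries were left out in turn, so a rise of Ifng is not settled. Ifnb1 had a single count, in AP replicate 3. The receptor and kinase genes rose in 6 of 8 tested cases. Jak2, the kinase of the gamma receptor, had 19.4, 16.3 and 19.3 normalised CPM in controls and 59.8, 69.5 and 68.0 in AP (log2 fold change 1.85, adjusted p = 6.22e-06). Ifnar1, a chain of the type I receptor, had 34.5, 41.3 and 47.2 in controls and 136, 134 and 129 in AP (1.70, adjusted p = 1.36e-05). Both chains of the gamma receptor, Ifngr1 and Ifngr2, rose as well. Ifnlr1, the type III receptor chain, fell by 0.86 (adjusted p = 0.00950), but was 1.32 higher with library totals. Jak1, the kinase shared by all interferon receptors, was -0.33 (adjusted p = 0.0423), a call that was lost on leaving out any 1 library and turned to 1.85 with library totals.

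Upstream of interferon production, 9 of 12 tested sensors and adaptors rose, 2 fell and 1 was not called. Irf5, an interferon regulatory factor of myeloid cells, had 2.48, 1.14 and 1.77 normalised CPM in controls and 64.4, 67.1 and 60.8 in AP (log2 fold change 5.15, adjusted p = 9.39e-07). Tlr7, the endosomal sensor of single-stranded RNA, had 5.34, 3.16 and 4.82 in controls and 136, 143 and 104 in AP (4.85, adjusted p = 1.16e-06). Ikbke, the inducible kinase of the interferon regulatory factors, had 2.48, 1.52 and 3.70 in controls and 35.2, 41.3 and 30.4 in AP (3.83, adjusted p = 7.44e-06). In these 3 genes AP replicate 2 was the highest and AP replicate 3 the lowest AP library. Mavs, the mitochondrial adaptor of the RNA helicases, fell by 1.32 (adjusted p = 2.98e-05), and Irf3, the constitutive factor that starts interferon transcription, fell by 0.85 (adjusted p = 0.000741). With library totals both turned, to 0.85 and 1.34. Traf3 was not called (0.37, adjusted p = 0.0596), but library totals (2.55) and the unfiltered fit (0.42, adjusted p = 0.0419) called it higher.

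Among 9 genes that restrain interferon signalling, 6 rose, 1 fell and 2 were not called, with a median log2 fold change of 0.54. Ptpn6, a phosphatase of blood cells, had 24.6, 36.5 and 33.4 normalised CPM in controls and 102, 129 and 118 in AP (1.89, adjusted p = 2.61e-05). Ptpn2, another phosphatase, was called (0.35, adjusted p = 0.0347), but not with DESeq2, with limma-voom, with the replicate block or on leaving out any 1 library. Irf2, a competitor of Irf1, rose by 0.99 (adjusted p = 0.000423). Trim24, a transcriptional co-regulator, fell by 1.43 (adjusted p = 9.22e-05), but was 0.74 higher with library totals. Socs1, the main inhibitor of interferon receptor kinases, had 0.372, 1.14 and 0.964 in controls and 1.06, 1.59 and 4.41 in AP. Its groups overlapped and it was not called (1.52, adjusted p = 0.0821), although it was without AP replicate 1 (1.87) and with library totals (3.64), and it was 0.69 without AP replicate 3. Irf2bp2 was also not called (-0.08, adjusted p = 0.595).

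Genes best known as targets of interferon gamma, in antigen processing and T cell-attracting chemokines, rose in 10 of 13 tested cases, and 12 of the 13 were highest in AP replicate 3. Psme1, a proteasome activator subunit, had 38.5, 33.6 and 28.1 normalised CPM in controls and 106, 122 and 151 in AP (log2 fold change 1.91, adjusted p = 2.64e-05). Nlrc5, the activator of MHC class I genes, had 3.10, 4.80 and 1.61 in controls and 24.3, 39.4 and 62.7 in AP (3.70, adjusted p = 0.000127). Both genes were lowest in AP replicate 1 and highest in AP replicate 3, with no overlap between the groups. The chemokine gene Cxcl9 had 18.4, 31.5 and 10.9 in controls and 10.8, 27.7 and 88.9 in AP, and was not called (1.06, adjusted p = 0.211). Cxcl11 had 2.23, 4.30 and 2.89 in controls and 1.65, 4.30 and 44.7 in AP, and was not called either (2.42, adjusted p = 0.0952). For both chemokines AP replicate 3 alone stood well above the controls, and without it the log2 fold changes were -0.09 and -0.08. Leaving out AP replicate 1 made both genes called (1.52 and 2.96), as did library totals (3.18 and 4.51), and Cxcl11 was called without AP replicate 2 as well (2.88). Cxcl10, the third chemokine of the list, was called (5.01, adjusted p = 0.00256; 3.48 without AP replicate 3), but not with limma-voom (adjusted p = 0.158). Psmb10, an immunoproteasome subunit, was the only gene of this list called lower (-6.44, adjusted p = 0.000118; -7.38 without AP replicate 3). It had 15242, 20800 and 22175 normalised CPM in controls, and in RefSeq it lies next to Ctrl, a chymotrypsin-like enzyme gene of acinar cells that was not analysed here. Whether reads of that neighbour entered the Psmb10 row was not tested.

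A further 29 interferon-stimulated genes outside the member list were tested, of which 24 rose, 1 fell and 4 were not called, with a median log2 fold change of 2.37. Ifitm1, which blocks virus entry at membranes, had 5.34, 3.79 and 4.82 normalised CPM in controls and 86.0, 86.1 and 102 in AP (4.30, adjusted p = 6.84e-07). Ifitm3, of the same family, had 26.9, 29.6 and 32.8 in controls and 144, 143 and 131 in AP (2.23, adjusted p = 2.20e-06). Pml, which scaffolds the nuclear bodies that also hold Sp100, had 7.95, 9.73 and 8.36 in controls and 51.3, 66.8 and 65.7 in AP (2.82, adjusted p = 2.48e-06). Isg20, an exonuclease of single-stranded RNA, fell by 1.30 (adjusted p = 0.00117), but was 0.87 higher with library totals. Ifitm2, Tnfsf10, Lap3 and Pnpt1 were not called, with log2 fold changes of 0.27, 0.14, -0.40 and 0.23. Ifitm2 was called without control replicate 1 (0.62) and Lap3 without AP replicate 3 (-0.56), and Tnfsf10 turned to -0.25 without AP replicate 3. Among the 24, Gbp1 lost its call with DESeq2, with limma-voom and without control replicate 1, control replicate 3 or AP replicate 3, Tdrd7 without AP replicate 2 and Parp10 without control replicate 1. With library totals the 4 genes not called were called higher, at 2.45, 2.30, 1.77 and 2.40. Of this list, 23 genes were lowest in AP replicate 1 and 19 were highest in AP replicate 3.

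**Figure D4:**
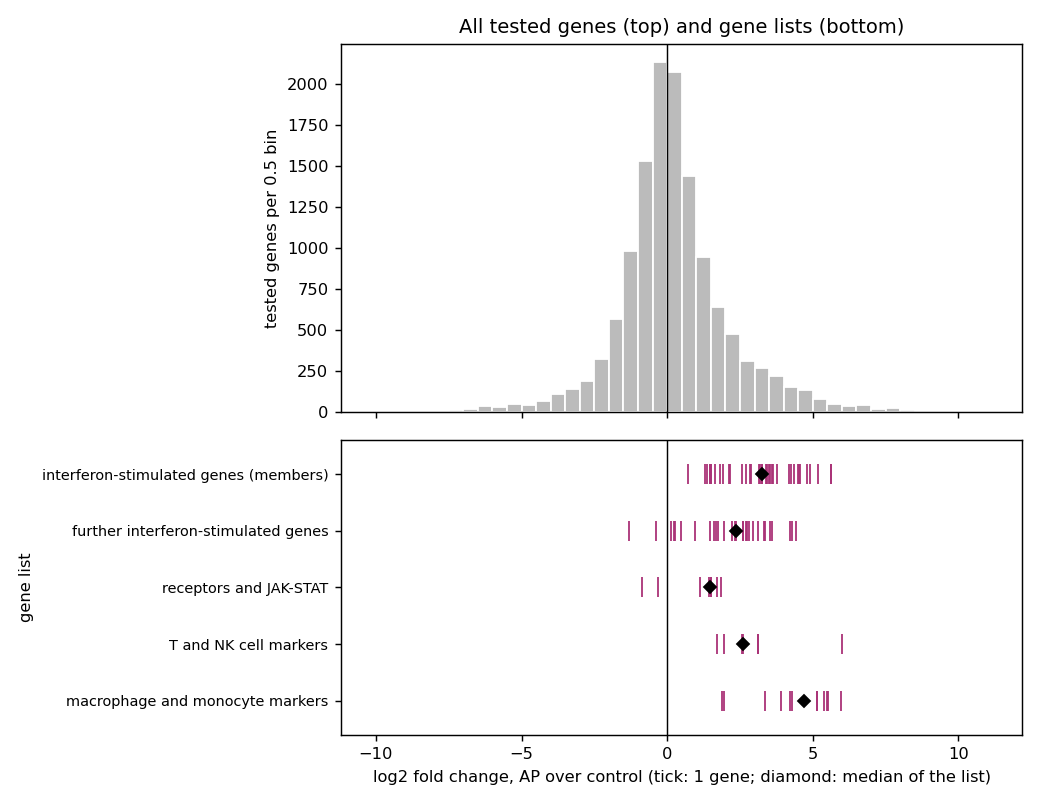
Top, number of tested genes per 0.5 bin of log2 fold change of AP over control (13240 genes). Bottom, each gene of 5 lists as a tick and the list's median as a diamond, on the same axis; medians are 3.25 for the members, 2.37 for the further interferon-stimulated genes, 1.48 for receptors and JAK-STAT, 2.62 for T and NK cell markers and 4.70 for macrophage and monocyte markers.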

How the data were processed

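Transcripts with a poly(A) tail were captured on oligo(dT) beads and read on an Illumina instrument, per the labels' protocols, which do not speak of strand. The deposited table holds whole-number read counts per gene, not normalised. Per the submitters' processing notes, the authors used FastQC, STAR, featureCounts and DESeq2 with rat build mRatBN7.2. Versions, annotation release and the handling of multi-mapping reads were not given in the sources used here. Column totals were 14453584 to 18961353 counts. Of 23096 rows, 3110 carried no gene name (5.48% to 7.69% of control counts, 1.41% to 2.10% of AP counts) and stayed out of library sizes and tests, and 185 symbols on several rows were summed.

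Groups were compared in edgeR 4.0.16 (R 4.3.3) by its quasi-likelihood test, with TMM scaling, the default low-count filter and Benjamini-Hochberg adjustment over 13240 genes, with no covariate. It was checked on simulated counts. Few genes differed between the groups there, so the check does not reach the scaling of data in which most tested genes were called. Standard errors were taken as the size of the log2 fold change divided by the root of its F statistic. Normalised CPM used TMM-scaled library sizes and are not shares of reads; log2 values used a prior count of 2. Gene lengths were not used, so levels are not compared between genes. No pair of replicates agreed within sampling noise (their chi-square per gene was 40.6 to 152). The alternatives were 3 other scalings, TMM without acinar genes, DESeq2 1.42.0, limma-voom (limma 3.58.1), other filters, the replicate number as a block, other treatments of unnamed and repeated rows, and each library left out in turn. Where an arm then held 2 libraries the spread was pooled over both groups.

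The 41 members and all gene lists were chosen with earlier results of these data known, so no list carries a test of its own and adjusted p-values refer to all tested genes. In each role group the 3 members with the lowest p are given in every library, as is each member not called, changing its call, or spanning over 4-fold in AP. In other lists the 3 genes with the lowest p, those called lower and those not called could be named. Cxcl10, Ptpn2, Ifngr1, Gbp1, Tdrd7, Parp10 and the marker genes named were picked after their values were seen. RefSeq GRCr8 supplied promoter windows and gene neighbours by symbol, and all 41 members were in its gene table. Its build differs from that of the counts.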

Additional observations from a re-analysis of the deposited data

How the results depend on the processing

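Of the 38 tested members, 35 kept their direction and their call in each alternative that was run and gave a value, among them each library left out in turn. The exceptions were Herc6, Rsad2 and Ifit1. Ifit1 ranged from -1.68 without AP replicate 2 to 3.40 without AP replicate 3, and DESeq2 gave it no adjusted p. The number of members called ranged from 36 to 38 and their median log2 fold change from 3.14 to 3.47 over 16 settings. With library totals as the scaling the median moved to 5.40, as the median of all tested genes moved by 2.18, and 95.3% of calls were then higher against 52.9% in the fit used here; 12252 genes were called in all. The cause of that difference in totals was not tested. Leaving out 1 library at a time gave 7654 to 8063 called genes, 36 to 37 called members and medians of 3.14 to 3.47. The deviations of same-numbered libraries from their group means correlated at -0.03, 0.03 and -0.11. With 3 libraries per group, such values cannot tell whether libraries of the same number were collected or handled together. With the replicate block 7904 genes and 36 members were called, and the median was 3.28. Without a filter Irf9 was also called, giving 38 of 39. The median range among AP libraries was 0.57 with library totals and 0.72 with DESeq2 size factors. Depth limits what can be said of the interferon ligands and of Irf9, which had few counts; the cause of the 0 counts of Isg15 was not tested.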
